A study of Mus musculus with 18 samples.

Results

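The liver RNA of 6 mice was prepared with a pair of low-input RNA-Seq kits, and the genes described here are those listed with counts for both. There were 18108 genes listed for Pico and 18051 listed for V4, of 21018 genes listed for at least 1 of the 3 kits of the series, and 16395 genes were listed for both. Every one of these 16395 genes was compared, mouse by mouse, after each library had been scaled to its own total. The mice were 12-week-old males of the strain C57/B6J. The 3 IL-1β mice had received this inflammatory cytokine at 20 µg/Kg and the 3 saline mice saline, with livers taken 4 hours later. Mice are numbered here from 1 to 3 within a treatment, in the order of the numbers in the sample labels, and the same number stands for the same mouse in each kit. Pico is a stranded total RNA kit in which cDNA of ribosomal RNA is cut away by an enzyme, and it was given 1.7 to 2.6 ng of RNA. V4 is an unstranded kit that starts from the poly(A) tail and makes full-length cDNA, and it was given 0.8 to 1.3 ng. Both were read as 150 bp pairs. The kits differ in priming, strand, RNA amount, amplification and counted depth all at once, so these cannot be told apart as sources of a difference between them. TruSeq, a stranded poly(A) kit run on 200 ng of RNA of the same mice with 125 bp reads, is quoted beside the pair and was not tested against it.

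Most messenger RNAs and many long noncoding RNAs end in a poly(A) tail, which a kit that primes on that tail needs. Small structured RNAs of the splicing, transcription and RNA-processing machinery (snRNAs, snoRNAs and RNAs such as 7SK) lack such a tail, and the messengers of replication-dependent histones end in a stem-loop instead. Ribosomal RNA makes up most of the RNA of a liver cell, which is why a total RNA kit has to remove it.

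The sequences of 4 structured RNAs called higher in Pico are shown first, from the NCBIM37 (mm9) genome on the transcribed strand, to show how short their runs of A are. Capitals mark the longest run of A in each. U1, the snRNA that recognises the 5′ splice site, is the copy ENSMUSG00000075736 at chr12:55797769-55797932 (plus strand). U2, which pairs with the branch point, is the copy ENSMUSG00000065251 at chr11:101507054-101507244 (minus strand). RNase_MRP (ENSMUSG00000088088, chr4:43505660-43505930, minus strand) is the RNA of an enzyme that cuts ribosomal precursor RNA. 7SK (ENSMUSG00000065037, chr9:78023110-78023440, minus strand), of which the first 300 of 331 bases are given, holds back the elongation factor of RNA polymerase II.
U1: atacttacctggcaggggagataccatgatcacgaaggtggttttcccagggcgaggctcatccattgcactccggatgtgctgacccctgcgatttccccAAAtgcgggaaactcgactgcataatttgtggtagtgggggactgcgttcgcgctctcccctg
U2: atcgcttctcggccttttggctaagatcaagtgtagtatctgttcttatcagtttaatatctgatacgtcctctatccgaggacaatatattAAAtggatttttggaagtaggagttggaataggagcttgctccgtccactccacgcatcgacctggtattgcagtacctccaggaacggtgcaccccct
RNase_MRP: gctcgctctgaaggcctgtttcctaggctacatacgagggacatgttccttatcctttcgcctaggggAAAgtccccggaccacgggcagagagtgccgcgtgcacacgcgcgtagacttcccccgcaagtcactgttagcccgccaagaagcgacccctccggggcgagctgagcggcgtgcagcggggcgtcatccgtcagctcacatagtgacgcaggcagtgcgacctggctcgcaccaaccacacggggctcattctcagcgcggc
7SK: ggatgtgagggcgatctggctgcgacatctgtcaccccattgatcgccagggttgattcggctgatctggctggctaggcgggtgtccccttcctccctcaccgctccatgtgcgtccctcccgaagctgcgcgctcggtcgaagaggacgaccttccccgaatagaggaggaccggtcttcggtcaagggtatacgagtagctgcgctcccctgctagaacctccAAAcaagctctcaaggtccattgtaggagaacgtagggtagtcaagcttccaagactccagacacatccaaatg
The longest run of A in each of these 4 RNAs was 3 bases. Over all 16395 genes the median of the longest run of A in the exons was 6 bases, and 17.8% had a run of at least 10, against none of the 16 misc_RNA, 10 snRNA and 20 snoRNA genes. These 46 genes are 104 to 423 bases long, against a median of 3165 over all genes, so runs were not compared at like length. Among protein-coding genes the median run was 7 bases where Pico was higher and 5 where V4 was higher. A run of at least 10 was found in 28.8% and 8.15% of them. Several loci are named U1, U2 and 7SK. How alike their sequences are was not compared, so the counts of a single one are uncertain.

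The ends of messengers on either side of the comparison are shown next, as 30 bases at or near the annotated 3′ end. In the first pair, replication-dependent histone genes with more counts in Pico, capitals mark the histone stem-loop. In the others, which had more counts in V4, capitals mark the poly(A) signal AATAAA.
Hist1h1e (chr13:23713644-23713673, minus strand): acccaaaGGCTCTTTTCAGAGCCacccaca
Hist2h2ac (chr3:96024334-96024363, minus strand): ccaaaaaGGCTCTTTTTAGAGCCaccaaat
Hist1h2bc (chr13:23784328-23784357, plus strand): tatAATAAAtgtcatgtaaagcaaaaaaaa
Gchfr (chr2:118998093-118998122, plus strand): ccAATAAAgggctctcacaagtggttgttc
Cox5a (chr9:57380202-57380231, plus strand): actttAATAAAgggaaatgagtttgaactg
The stem-loop was searched on the transcribed strand of the last 100 bases and was found in 19 of the 16395 genes (0.116%), all of them among the 50 replication-dependent histone genes listed for both kits. AATAAA was searched on the same strand of the last 50 bases and was found in 55.6% of all genes, in 61.2% of protein-coding genes and in none of the misc_RNA, snRNA and snoRNA genes. Among protein-coding genes the share with AATAAA was 62.8% where Pico was higher and 63.5% where V4 was higher. Mouse mRNAs use other signals too, and genes without these letters in the window may carry one of them.

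Counted reads per library were 4024632 to 4134070 in Pico and 12013453 to 12352473 in V4, so a gene of few reads was measured with more counting error in Pico. Genes listed for both kits held at least 99.87% of the counts of every library. Levels below are CPM, the counts of a gene per 1000000 counted reads of its library, and differences are in log2 of Pico over V4. The labelled tissue was checked against 8 hepatocyte markers, which summed to 48797 to 72290.3 CPM in Pico and 43157 to 65437 CPM in V4. The V4 libraries of saline mouse 3 and IL-1β mouse 1 stood apart from the other V4 libraries in several kinds of RNA. In these libraries misc_RNA genes held 7.29e-04% and 9.12e-04% of the counts, against 2.40e-04% to 3.75e-04% in the other 4, and snoRNA genes 3.16e-04% and 3.86e-04%, against 7.44e-05% to 1.16e-04%. Values for mitochondrial RNAs, Apoa2 and Hba-a1 are given with those genes.

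With mouse as a block, limma-voom called 4197 genes (25.6%) higher in Pico and 1332 genes (8.12%) higher in V4, by more than 2-fold at an adjusted p of at most 0.05. The test was limma's treat on library totals with Benjamini-Hochberg adjustment over all 16395 genes. The 12 values of the kits did not overlap for 3353 of the 4197 genes and for 1207 of the 1332. This was counted among called genes only, where the call itself favours separate values, and not over all genes. The median log2 difference of all genes was 0.81, between 0.70 and 0.92 in single mice. It varied with the genes and the fit, and was 0.43 among the 11795 genes whose mean was at least 10 counts, 0.44 at equal depth, 0.60 with edgeR and 0.36 with DESeq2. The split of calls depends on the scaling: of the calls, 75.9% were higher in Pico with library totals, and with TMM factors, which moved the median by -0.52, 2897 genes were higher in Pico and 2359 in V4 (55.1% higher in Pico). The counts of calls and medians of the gene lists below stand against 25.6%, 8.12% and 0.81 over all genes, and no difference between a list and all genes was tested. Neither the 0.81 nor the list medians carry a count floor.

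**Figure D1:**
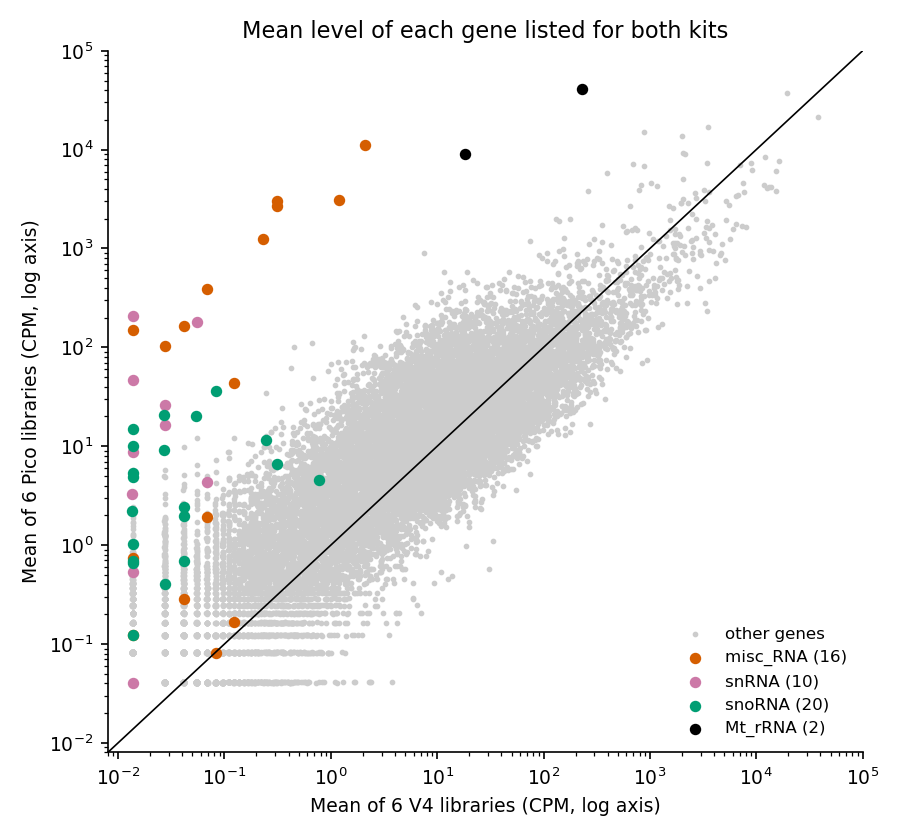
Each point is 1 of the 16395 genes, with its mean CPM over 6 V4 libraries on the x axis and over 6 Pico libraries on the y axis, both on log axes, and the line marks equal values. Genes annotated as misc_RNA, snRNA, snoRNA and Mt_rRNA are coloured and lie mostly far above the line, while the other genes spread on both sides of it.

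Which RNA classes separated the kits was asked with the share of each library's counts that a class held. Protein-coding genes held 89.6% ± 0.468 (SD, n = 6) of the Pico counts and 98.3% ± 0.227 of the V4 counts. The mitochondrial ribosomal RNAs held 5.02% ± 0.42 in Pico and 0.025% ± 0.0103 in V4. Genes annotated as misc_RNA held 2.20% ± 0.17 in Pico and 4.77e-04% ± 2.77e-04 in V4. These values did not overlap between the kits. In the misc_RNA class 1 gene, AC157822.1, held 271791 of the 536833 Pico counts and 152 of the 348 V4 counts. Of its 16 genes, 12 were called higher in Pico. The authors removed ribosomal reads before counting, and the paper lists mitochondrial rRNAs among its ribosomal subunits. How far that step took reads of the mitochondrial ribosomal RNAs is not given in the sources used here. Genes annotated as processed_transcript, which include Malat1 and Neat1, held 0.841% to 2.01% in Pico and 0.148% to 0.247% in V4. Malat1 and Neat1 had means of 7213 and 5742 CPM in Pico and 694 and 393 in V4. They held most of the counts of this class in Pico. Of its 340 genes, 52 (15.3%) were called higher in Pico and 10 (2.94%) higher in V4, where 25.6% and 8.12% of all genes were. snRNA genes held 0.0409% to 0.0585% in Pico and from 0 to 4.93e-05% in V4, where 1 library had none of their counts, and snoRNA genes 0.0138% to 0.0182% and 7.44e-05% to 3.86e-04%. Pseudogenes held 1.45% ± 0.0439 and 1.39% ± 0.203, and lincRNAs 0.105% ± 0.0156 and 0.0896% ± 0.0217, with overlapping values in both classes.

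The share was higher in Pico in 6 of 6 mice for Mt_rRNA, misc_RNA, snRNA, snoRNA and processed_transcript, and lower in 6 of 6 for protein-coding genes. Each of these gave p = 0.03125 in an exact two-sided sign-flip permutation test over the 6 mice, the smallest value this design allows, and 0.0573 after Benjamini-Hochberg adjustment over 11 classes, so no class passed 0.05. Mean log2 differences of the shares were 12.34 ± 0.87 (SD, n = 6) for misc_RNA, 11.07 ± 1.49 for snRNA, 7.74 ± 0.60 for Mt_rRNA, 6.68 ± 0.96 for snoRNA and 2.71 ± 0.34 for processed_transcript. The protein-coding share differed by -0.13 ± 0.00966 with the full totals. Leaving the counts of the mitochondrial genome out of the totals alone gave -0.00235. The messengers of that genome, at 48002 CPM in Pico and 12408 in V4, were still counted as protein-coding there. That value therefore does not compare protein-coding genes outside the mitochondrial genome. In pseudogenes the mean difference of 0.07 ± 0.19 was within the spread between mice (exact p = 0.438, adjusted p = 0.481). In lincRNAs it was 0.25 ± 0.25 (exact p = 0.0938, adjusted p = 0.115). The TruSeq shares were 0.109% for Mt_rRNA, 0.00154% for misc_RNA and 97.8% for protein-coding genes.

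**Figure D2:**
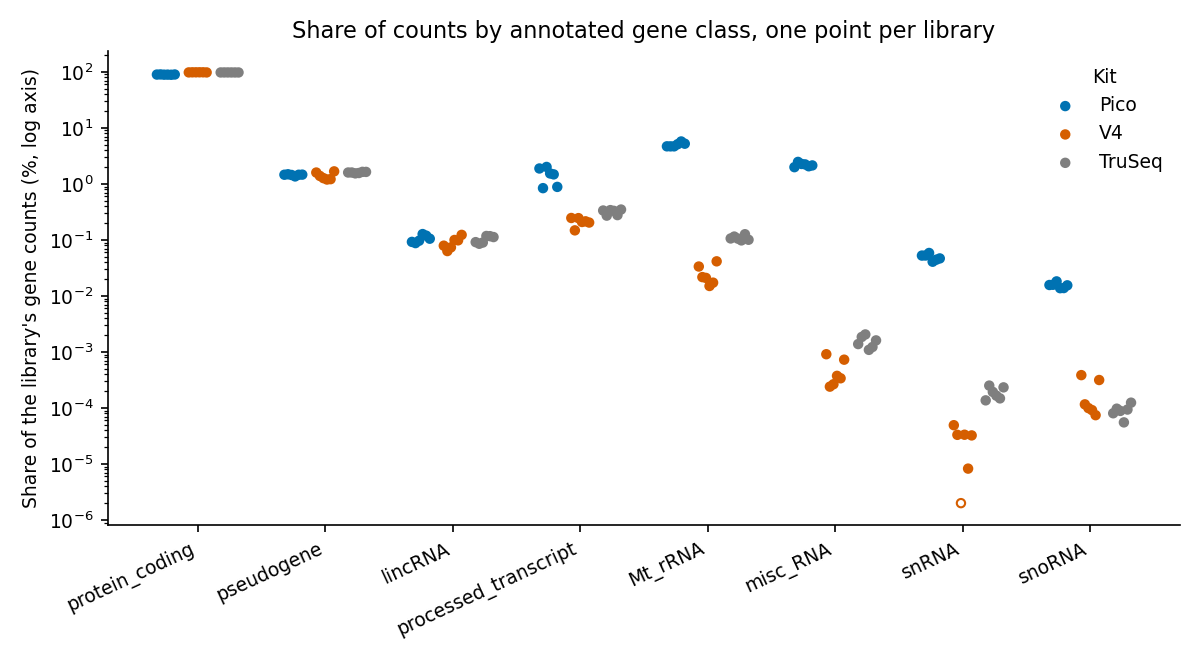
Share of a library's gene counts (%, log axis) held by each of 8 annotated classes, with 1 point per library, 6 for each kit, and an open circle for a library with no count. The Pico points of Mt_rRNA, misc_RNA, snRNA, snoRNA and processed_transcript lie above all V4 points, and those of pseudogene and lincRNA overlap with them.

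Among the 46 genes of the classes misc_RNA, snRNA and snoRNA, 40 were called higher in Pico and none higher in V4, where 25.6% of all genes were called higher in Pico. Of these 46 genes, 29 had at most 3 counts over the 6 V4 libraries together. The 46 genes summed to 552663 counts in the Pico libraries and to 499 in the V4 libraries, although the V4 libraries were deeper. With TMM factors 38 of them were called higher in Pico. The 6 genes not called were 3 loci named 7SK, 1 clone-named misc_RNA, 1 U1 locus and 1 SNORA5 locus, each with at most 9 counts in either kit's libraries together. A total of 17 of the 46 lie inside an intron of a gene on their own strand.

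7SK (ENSMUSG00000065037) had 2419, 2714 and 2919.9 CPM as the lowest, median and highest of the Pico libraries. In V4 it had 23 counts in all, and its CPM values were 0, 0.208 and 0.891. The ratio of the pooled CPM was 8464 (95% exact binomial interval 5640.0 to 13352, counting error only), with log2 difference 13.40 ± 0.52 (SE), adjusted p = 3.51e-09, in a gene at 5.25 CPM in TruSeq. RNase_MRP had 348, 377 and 478 CPM in Pico and 5 counts in the V4 libraries together (log2 difference 12.18 ± 0.49 (SE), adjusted p = 4.51e-09). All 6 Pico values lay above all 6 V4 values for each of these RNAs, which their choice by the largest ratios favours.

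The U1 copy shown above had 172, 197 and 249 CPM in Pico and 1 count in the 6 V4 libraries, a pooled ratio of 15198 with a counting interval of 2726 to 600389. The vault RNA (Vault, ENSMUSG00000065145), a part of a large cytoplasmic particle, had 109, 146 and 208 CPM in Pico and also 1 count in V4. The U2 copy shown above had 127, 177 and 218 CPM in Pico and 4 counts in V4, a pooled ratio of 3245 (1267 to 11916). The clone-named misc_RNA gene AC027184.1 had the same direction, with 1254 ± 197 CPM (SD, n = 6) in Pico and 17 counts in V4. Among the RNAs that guide modification of other RNAs, Scarna13 had 13.7, 19.2 and 25.7 CPM in Pico and 4 counts in V4, and Scarna2 had 9.55, 11.4 and 13.9 CPM and 18 counts. Of the structural RNAs listed by symbol for this class, 8 stood in the annotation and these 2 in both tables, and the RNAs above were found by their annotated class.

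mt-Rnr2 and mt-Rnr1, the large and small ribosomal RNAs of the organelle, were called higher in Pico. mt-Rnr2 (chrM:1094-2675) had 38328, 40500.2 and 46403 CPM in Pico and 146, 201 and 370.4 in V4 (log2 difference 7.51 ± 0.15 (SE), adjusted p = 4.71e-11). mt-Rnr1 had 8030.1, 8794 and 10894 CPM in Pico and 4.83, 12.7 and 44.8 in V4 (log2 difference 9.0 ± 0.37 (SE), adjusted p = 6.83e-09). The highest V4 values of both belonged to saline mouse 3, with 370.4 and 44.8 CPM, and the next to IL-1β mouse 1, with 306 and 29.6. The longest run of A in mt-Rnr2 was 7 bases.

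The 13 messengers of the mitochondrial genome code for respiratory chain and ATP synthase subunits, and most of them have short tails. Of the 13, 10 were called higher in Pico and none higher in V4 (8 and none with TMM factors), and their median difference was 2.18, against 0.81 for all genes. mt-Co1, the catalytic subunit of cytochrome c oxidase, had 15240, 16963 and 18686 CPM in Pico and 1058, 3424 and 5549 in V4 (log2 difference 2.29 ± 0.23 (SE), adjusted p = 4.07e-04). Its V4 values were 1058 CPM in saline mouse 3, 2339.8 in IL-1β mouse 1 and 3225 to 5549 in the other 4, while the 6 Pico values stayed within 15240 to 18686. mt-Nd5 had 6858 ± 445 CPM in Pico and 880.3 ± 27.2 in V4 (SD, n = 6, log2 difference 2.96 ± 0.04 (SE), called higher in Pico). mt-Nd6, the one messenger of the other strand, whose exon overlaps that of mt-Nd5, had 169 ± 35.9 CPM in Pico and 132 ± 33.7 in V4 (log2 difference 0.37 ± 0.12 (SE), adjusted p = 1), and its difference turned to -0.16 with TMM factors. The V4 counts do not keep strand, so reads of mt-Nd5 and mt-Nd6 in their overlap cannot be told apart there.

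Nuclear-encoded subunits of the same respiratory complexes had the other direction. Of 79 nuclear-encoded respiratory chain and ATP synthase subunits, 50 were called higher in V4 and none in Pico (60 and none with TMM factors), where 8.12% of all genes were called higher in V4. Their median difference was -1.76, between -2.13 and -1.47 in single mice. Together they held 16676 to 24604 CPM in V4 and 5915 to 7679 in Pico. The calls were spread over all 5 complexes, with 26 of 36 subunits of complex I, 3 of 4 of complex II, 6 of 9 of complex III, 6 of 13 of complex IV and 9 of 17 of ATP synthase. Cox5a, a subunit of complex IV, had 26.2, 33.1 and 42.4 CPM in Pico and 243, 291 and 453 in V4 (log2 difference -3.19 ± 0.17 (SE), adjusted p = 3.82e-07). Atp5b, the catalytic subunit of ATP synthase, had 874 ± 90.8 CPM in Pico and 1695 ± 239 in V4 (log2 difference -0.95 ± 0.04 (SE), adjusted p = 1), and Sdha, the flavoprotein of complex II, 455 ± 58.1 CPM in Pico and 470.4 ± 144 in V4 (log2 difference -0.03 ± 0.10 (SE), adjusted p = 1). The estimates for these longer genes were under 2-fold, Atp5b was called higher in V4 with TMM factors, and the difference of Sdha changed sign when saline mouse 1 or 2 was left out. Across the 79 genes the correlation with length was only 0.12.

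Of 50 replication-dependent histone genes, 25 were called higher in Pico and 1 higher in V4, with a median difference of 2.57, where 25.6% and 8.12% of all genes were called. With TMM factors 17 and 1 were called. The stem-loop was found near the annotated end of 19 of the 50, of which 13 were called higher in Pico and none higher in V4. AATAAA was found at the end of 8, of which 2 were called higher in Pico and 1 higher in V4. The other 23 had neither, and 10 of them were called higher in Pico and none higher in V4. Differences between these groups were not tested. By type, 9 of 10 H4 genes, 5 of 9 H3, 6 of 12 H2A, 2 of 15 H2B and 3 of 4 H1 genes were called higher in Pico. The H3 genes include Hist2h3c2-ps, which is annotated as a pseudogene and was not called. In only 15 of the 50 was the mean at least 10 counts. Across the 50 genes the correlation with length was -0.30.

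Hist1h1e, a linker histone, had 61.8, 77.1 and 107 CPM in Pico and 1.17, 1.74 and 4.76 in V4 (log2 difference 4.95 ± 0.34 (SE), adjusted p = 9.98e-07). In TruSeq it had a mean of 0.147 CPM. Hist2h2ac, a core histone of the H2A type, had 13.9 ± 3.11 CPM in Pico and 0.275 ± 0.27 in V4 (SD, n = 6, log2 difference 5.78 ± 0.49 (SE), called higher in Pico). Hist1h2bc, an H2B gene whose model ends after AATAAA, had 68.8, 83.9 and 98.3 CPM in Pico and 299.8, 322 and 341 in V4 (log2 difference -1.92 ± 0.09 (SE), adjusted p = 1.97e-06). Its TruSeq mean of 60.2 CPM lay below the Pico mean of 84.6, although TruSeq is a poly(A) kit. This 1 gene held most of the V4 counts of the list, which summed to 394 CPM in V4 and 331 in Pico. Hist1h1c, with AATAAA at its end, had 39.2 ± 16.3 CPM in Pico and 41.2 ± 19.2 in V4 (log2 difference -0.06 ± 0.12 (SE), adjusted p = 1). Of 11 replication-independent histone variant genes, whose messengers have a tail, 4 were called higher in V4 and 1 in Pico (5 and none with TMM factors). H3f3b, which codes for the H3.3 variant, had 144 ± 87.3 CPM in Pico and 545 ± 343 in V4 (log2 difference -1.92 ± 0.08 (SE), called higher in V4), and H3f3a, which codes for the same protein, had 39.4 ± 5.11 CPM in Pico and 12.6 ± 3.55 in V4 (log2 difference 1.64 ± 0.18 (SE), called higher in Pico with library totals only).

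Of 8 long noncoding RNAs of the nucleus, 6 were called higher in Pico and none higher in V4 (3 and none with TMM factors), with a median difference of 2.75, and the mean reached 10 counts in 3 of the 8. Malat1 (ENSMUSG00000092341), an abundant RNA of nuclear speckles, had 5899, 6784 and 8698 CPM in Pico and 559.7, 716 and 763 in V4 (log2 difference 3.37 ± 0.07 (SE), adjusted p = 1.53e-10). Its longest run of A, 12 bases, is shown in capitals in the 30 bases around it (chr19:5795979-5796008, minus strand), near the 3′ end of the gene model.
Malat1: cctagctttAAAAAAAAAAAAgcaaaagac
Neat1 (ENSMUSG00000092274), the scaffold of paraspeckles, had 11009, 1186, 11656, 5157, 4687 and 758 CPM in Pico, for the 3 IL-1β mice and then the 3 saline mice. In V4 the same mice had 702, 90.7, 826, 342, 339 and 57.4 CPM. IL-1β mouse 2 and saline mouse 3 were lowest with either kit, and the values of the kits overlapped, but within mice the difference was 3.86 ± 0.04 (SE) in log2 (adjusted p = 9.73e-13), higher in Pico in 6 of 6. Tug1 had 38.1 ± 1.87 CPM in Pico and 8.82 ± 2.98 in V4 (SD, n = 6, log2 difference 2.12 ± 0.19 (SE), adjusted p = 2.66e-04). Of 10 host genes of snoRNAs, 3 were called higher in Pico, near the 25.6% of all genes, and none in V4 (2 and none with TMM factors), among them Snhg1 with 33.5 ± 8.41 CPM in Pico and 1.98 ± 1.58 in V4 (log2 difference 4.13 ± 0.39 (SE)), while Gas5 had 50.8 ± 16.6 CPM in Pico and 32.8 ± 10.9 in V4 (log2 difference 0.63 ± 0.11 (SE), adjusted p = 1).

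**Figure D3:**
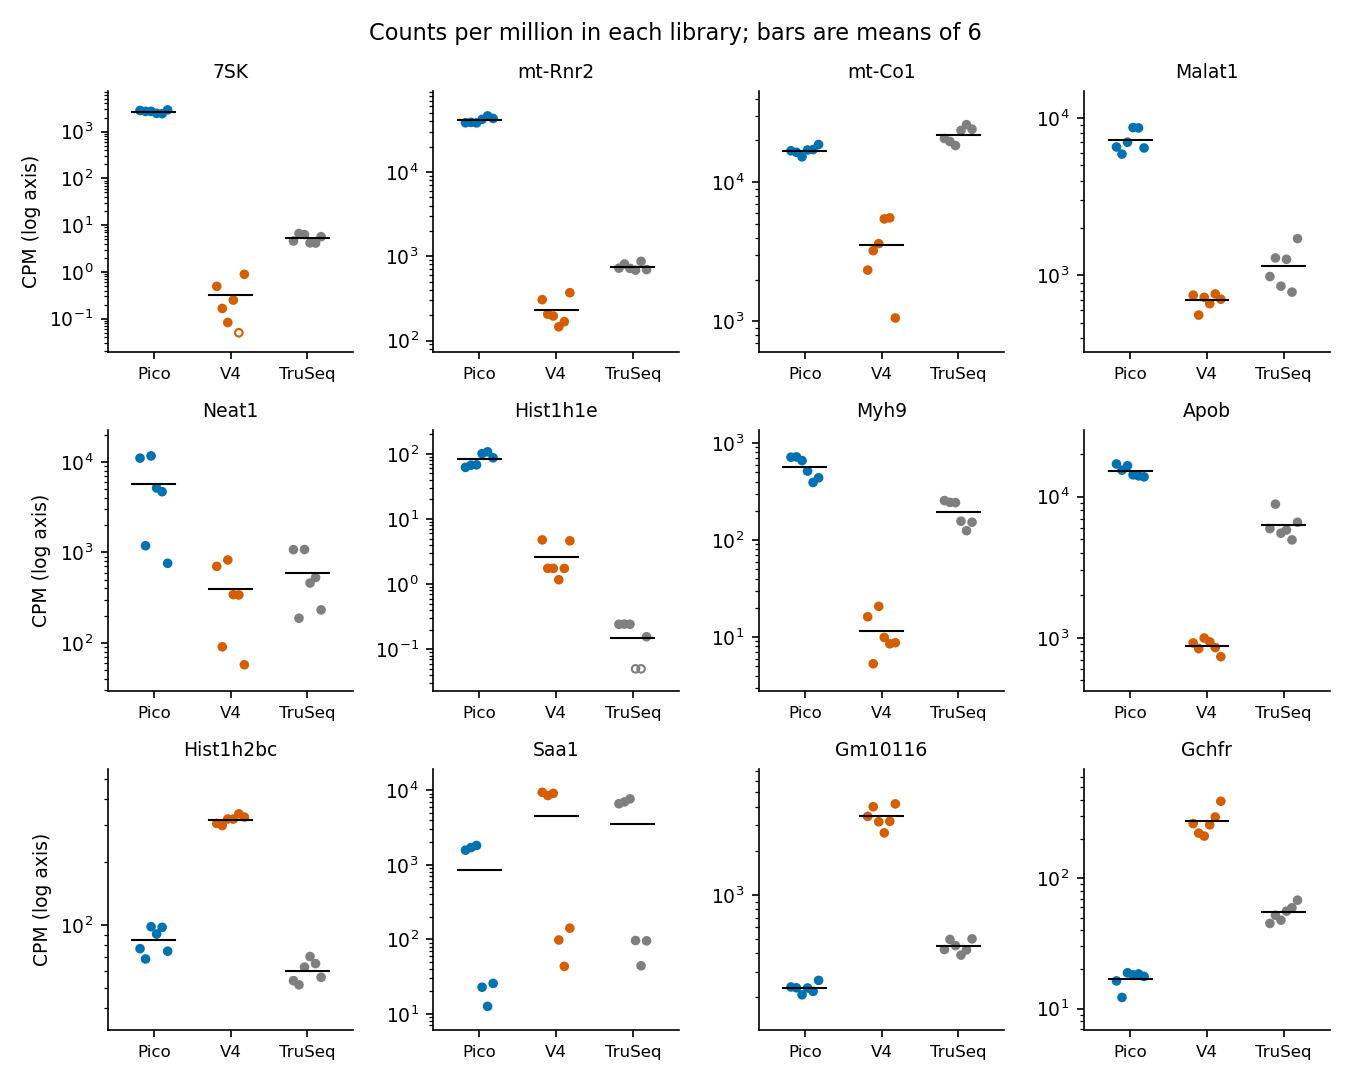
CPM (log axes) of 12 genes in each library of Pico, V4 and TruSeq. Points within a kit stand from left to right for IL-1β mice 1 to 3 and saline mice 1 to 3, open circles for a value of 0 and bars for the mean of 6. The Pico points of 7SK, mt-Rnr2, mt-Co1, Malat1, Hist1h1e, Myh9 and Apob lie above all V4 points, those of Hist1h2bc, Gm10116 and Gchfr lie below them, and Neat1 and Saa1 vary between mice alike in each kit.

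Among protein-coding genes the differences followed gene length. In 2201 genes per bin whose mean was at least 10 counts, the median difference was -1.14 at a median exonic length of 1422 bases. It was -0.31 at 2567 bases, 0.44 at 3688, 1.31 at 5141 and 2.40 at 8176. In the bin of shortest genes 34.8% were called higher in V4 and 5.13% higher in Pico, and in the bin of longest genes 0.454% and 70.2%. The 5 bins kept this order in all 6 mice. Spearman's correlation across these 11005 genes was 0.66, from 0.60 to 0.65 in single mice. It is across genes, which share the libraries and are not replicates. Over all 16395 genes it was 0.43, and the medians of the shortest bins were 0.14 and -0.21. The shortest bin also holds the structured RNAs and many genes of few counts.

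GC content showed a weaker relation. From the bin with a median GC content of 41.7% to the bin with 57.5%, the median difference went from 1.16 to -0.18, with a correlation of -0.25 across genes. Length and GC content were themselves correlated (-0.26). Within bins of like length the correlation with GC content was -0.23 in the shortest genes, -0.12 in the middle bin and 0.00387 in the longest.

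**Figure D4:**
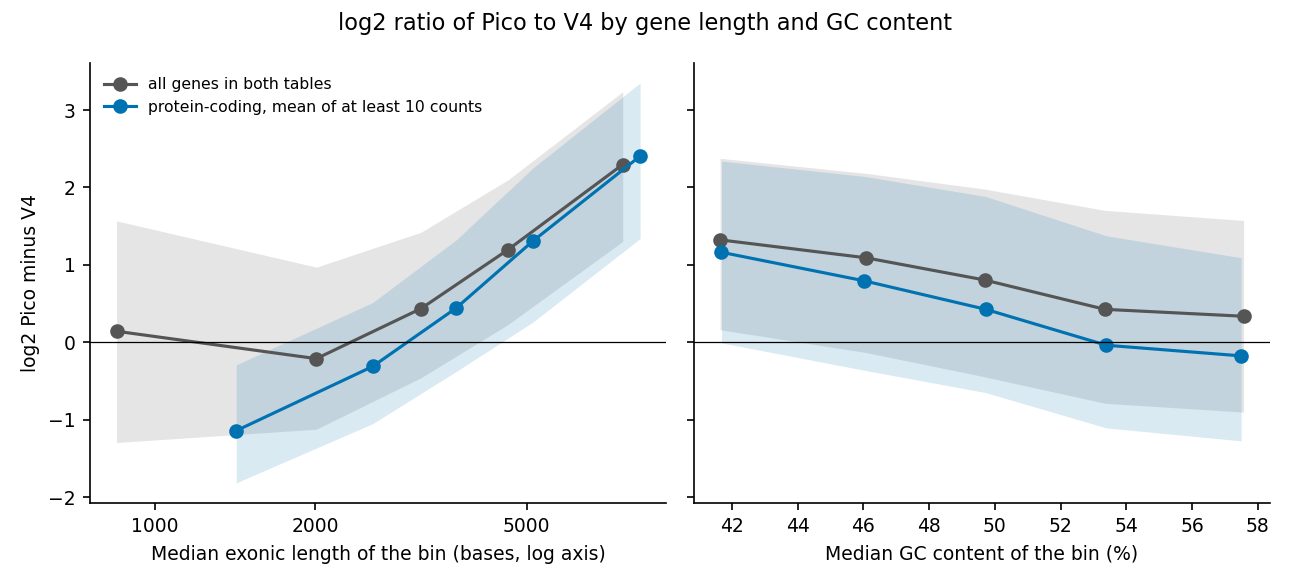
Median log2 difference of Pico and V4 (points) and its quartiles over genes (shaded) in 5 bins of exonic length (left, log axis) and of GC content (right), for all 16395 genes and for the 11005 protein-coding genes whose mean was at least 10 counts. In the protein-coding genes the median rises with each bin of length, from -1.14 to 2.40, and falls with GC content.

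All 21 genes of large cytoskeletal and linker proteins (median exonic length 12928 bases) and all 42 genes of chromatin modifying and remodelling enzymes (median 10508 bases) were called higher in Pico, and 21 and 41 were with TMM factors. Their median differences were 4.03 and 3.51, and the correlations with length within the lists were 0.61 and 0.23. Myh9, the heavy chain of nonmuscle myosin, had 392, 587 and 719.6 CPM in Pico and 5.31, 9.32 and 20.7 in V4 (log2 difference 5.64 ± 0.21 (SE), adjusted p = 5.22e-09). Syne1, which links the nuclear envelope to the cytoskeleton and has an exonic length of 31152 bases, had 97.8 ± 27.1 CPM in Pico and 1.65 ± 1.17 in V4 (SD, n = 6, log2 difference 5.89 ± 0.28 (SE), adjusted p = 3.45e-08). Macf1, which crosslinks actin and microtubules, had 458 ± 24.0 CPM in Pico and 13.2 ± 3.44 in V4 (log2 difference 5.12 ± 0.15 (SE)), and Plec, the linker of intermediate filaments, 522 ± 167 CPM in Pico and 57.8 ± 21.4 in V4 (log2 difference 3.18 ± 0.09 (SE)), both called higher in Pico. Clip1, a microtubule plus-end protein, had the smallest difference of the cytoskeletal list, with 2.32 ± 0.11. Among the chromatin enzymes the differences ran from 1.8 ± 0.11 in Mll5, the 1 gene not called with TMM factors, to 5.84 ± 0.29 in the histone methyltransferase gene Setd1b, which had 58.5, 96.5 and 119.8 CPM in Pico and 0.832, 1.65 and 2.24 in V4. Mll2, another histone methyltransferase, had 288 ± 30.9 CPM in Pico and 8.67 ± 1.40 in V4, and the corepressor Ncor1 259 ± 32.0 CPM in Pico and 50.7 ± 6.06 in V4, both called higher in Pico. In TruSeq the means were 196 CPM for Myh9, 118 for Macf1 and 30.6 for Setd1b, each between those of the kits compared.

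Of 329 zinc finger (Zfp) genes, 126 were called higher in Pico and 2 higher in V4 (87 and 7 with TMM factors), with a median of 1.55 at a median length of 3625 bases. The correlation with length across them was 0.43. Zfp106, with 11036 exonic bases, had 245 ± 28.6 CPM in Pico and 18.1 ± 3.36 in V4 (log2 difference 3.76 ± 0.12 (SE), called higher in Pico), and Zfp771, with 1371, had 6.11 ± 2.30 CPM in Pico and 31.7 ± 9.98 in V4 (log2 difference -2.36 ± 0.30 (SE), called higher in V4). Chaperones and folding enzymes of the endoplasmic reticulum had 8 of 20 called higher in Pico and 3 in V4 (4 and 5 with TMM factors), with a median of 0.19. Hyou1, a large chaperone, had 579 ± 201 CPM in Pico and 47.1 ± 16.8 in V4 (log2 difference 3.63 ± 0.13 (SE), called higher in Pico), Hspa5, the main chaperone of this compartment, 2244 ± 1104 CPM in Pico and 2477 ± 1144 in V4 (log2 difference -0.15 ± 0.03 (SE), adjusted p = 1), and Sdf2l1 63.2 ± 31.6 CPM in Pico and 245 ± 124 in V4 (log2 difference -1.95 ± 0.09 (SE), called higher in V4). Across these 20 genes the correlation with length was 0.63.

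The genes furthest toward V4 were short. Gchfr, which codes for the regulator of GTP cyclohydrolase, had the most negative log2 difference among called genes of the same sign in 6 of 6 mice with a mean of at least 20 CPM. It had 12.2, 17.9 and 18.8 CPM in Pico and 211, 260.2 and 391 in V4 (log2 difference -4.0 ± 0.16 (SE), adjusted p = 1.73e-08). Tspo, a mitochondrial outer membrane protein, had 6.19, 13.4 and 18.4 CPM in Pico and 127, 159 and 199 in V4 (log2 difference -3.61 ± 0.20 (SE), adjusted p = 2.98e-07). Tmem205 had 75 ± 13 CPM in Pico and 939.9 ± 169 in V4 (SD, n = 6, log2 difference -3.65 ± 0.09 (SE)) and Tmem223 3.64 ± 1.24 CPM in Pico and 54.9 ± 16.3 in V4 (log2 difference -3.89 ± 0.30 (SE)), both called higher in V4. The remaining 4 of the 8 genes at this end were Gm10116, at 232 ± 17.8 CPM in Pico and 3433 ± 571 in V4 (log2 difference -3.88 ± 0.07 (SE), adjusted p = 6.77e-11), and the pseudogenes Gm6467, Gm10039 and Gm12350, with differences of -3.82, -3.63 and -3.63. These are predicted genes or pseudogenes, whose counts are uncertain where reads match another copy. All 8 had an exonic length of 462 to 922 bases. The values of the kits overlapped in none of them, which the way they were chosen favours.

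Proteasome genes showed calls in 1 direction, with 20 of 37 called higher in V4 and none in Pico (28 and none with TMM factors) and a median difference of -1.41. The calls comprised 14 of 17 genes of the core particle (Psma and Psmb), 3 of 6 of the ATPases of the cap (Psmc) and 3 of 14 of its other subunits (Psmd). Psmb2, a core subunit, had 16.2, 23.8 and 29.7 CPM in Pico and 163, 208 and 219 in V4 (log2 difference -3.07 ± 0.16 (SE), adjusted p = 3.21e-07). Psmb6, another core subunit, had 64.3 ± 4.32 CPM in Pico and 332 ± 29.4 in V4 (SD, n = 6, log2 difference -2.37 ± 0.09 (SE), called higher in V4). Psmd2, a large cap subunit, had 156 ± 11.2 CPM in Pico and 157 ± 24.4 in V4 (log2 difference -0.00357 ± 0.08 (SE), adjusted p = 1), and its difference lay on either side of 0 depending on the fit. The median exonic length was 1711 bases in Psma and Psmb genes, 2174 in Psmc and 3110.5 in Psmd genes, and the correlation with length across the 37 genes was 0.50.

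Genes of cytosolic ribosomal proteins, which are short too, did not have this direction. Of 82 listed for both kits, 26 were called higher in Pico and 4 higher in V4 (17 and 6 with TMM factors), where 25.6% and 8.12% of all genes were. Their median difference was 0.81, as over all genes, and it lay 0.36 above that of all genes when those whose mean was under 10 counts were left out. Their median exonic length was 1454 bases, and the correlation with length across them was 0.04. Proteins of the large subunit had 16 of 47 genes called higher in Pico and none in V4, and those of the small subunit 9 of 34 and 4. This split by subunit does not cover all 82 genes. Rpl23a had 14.9 ± 2.64 CPM in Pico and 1.0 ± 0.503 in V4 (SD, n = 6, log2 difference 3.9 ± 0.35 (SE), called higher in Pico), and its model overlaps Tlcd1 on the other strand. Rps27l had 32.1 ± 3.09 CPM in Pico and 262 ± 55.4 in V4 (log2 difference -3.02 ± 0.14 (SE), called higher in V4). Rpl4 had 342 ± 8.24 CPM in Pico and 221 ± 18.8 in V4 (log2 difference 0.63 ± 0.06 (SE), adjusted p = 1), and Rplp0 193 ± 19.5 CPM in Pico and 222 ± 29.7 in V4 (log2 difference -0.20 ± 0.08 (SE), adjusted p = 1). Ribosomal protein genes have many processed copies, so their single-gene counts are uncertain where reads match several of them.

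Of 39 abundant plasma proteins of hepatocytes, 5 were called higher in Pico and 14 higher in V4 (4 and 21 with TMM factors), with a median difference of -0.94 and a correlation with length of 0.63. Apob, the large protein of low-density lipoproteins with 13934 exonic bases, had 13825, 14849 and 17049 CPM in Pico and 734, 885 and 996 in V4 (log2 difference 4.11 ± 0.04 (SE), adjusted p = 3.86e-13). C3, the central complement component, had 13691 ± 3147 CPM in Pico and 2009 ± 430.5 in V4 (SD, n = 6, log2 difference 2.77 ± 0.05 (SE), called higher in Pico). Apoa1, Apoa2 and Apoc3, small proteins of lipoprotein particles, were called higher in V4. Apoa2 had 4192 ± 519.7 CPM in Pico and 13085 ± 4426 in V4 (log2 difference -1.63 ± 0.11 (SE), adjusted p = 3.24e-04), Apoa1 6091 ± 1150.3 CPM in Pico and 15502 ± 3965 in V4 (log2 difference -1.34 ± 0.07 (SE), adjusted p = 0.0013) and Apoc3 403 ± 67.3 CPM in Pico and 2987 ± 628 in V4 (log2 difference -2.89 ± 0.07 (SE)). The V4 values of Apoa2 were 20648 CPM in saline mouse 3, 16213 in IL-1β mouse 1 and 9198 to 11321 in the other 4, and it was called higher in V4 without either mouse. Alb, which codes for albumin, had 37478 ± 7122 CPM in Pico and 19656 ± 4222 in V4 and was 1 of the 5 genes with the largest rise in CPM from V4 to Pico, with mt-Rnr2, Apob, mt-Co1 and C3. The Alb difference of 0.93 ± 0.04 was not past 2-fold (adjusted p = 1). The 5 largest falls were those of Apoe, at 21256 ± 2957 CPM in Pico and 37755 ± 7565 in V4 (log2 difference -0.82 ± 0.07 (SE), adjusted p = 1, called with TMM factors), Mup3, a urinary protein of a family with near-identical members, at 3849 ± 133 CPM in Pico and 15466 ± 2085 in V4 (log2 difference -2.00 ± 0.05 (SE)), Hp, which codes for haptoglobin, at 4168 ± 2640.0 CPM in Pico and 13744 ± 8709 in V4 (log2 difference -1.72 ± 0.03 (SE)), Apoa1 and Apoa2. In TruSeq Alb had 63233 CPM, Apob 6273, Apoe 8139.9 and Mup3 8667.

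Acute-phase and cytokine response genes, which IL-1β raises, had 4 of 24 called higher in Pico and 6 higher in V4 (1 and 7 with TMM factors), where 25.6% and 8.12% of all genes were. Their median difference was -0.45 and their correlation with length 0.79. Saa3, a short acute-phase protein gene, had a median of 439.7 CPM in Pico and 3175 in V4 over mice of both treatments (log2 difference -2.95 ± 0.08 (SE), adjusted p = 3.76e-09, lower in Pico in 6 of 6 mice). Saa1 and Saa2, which are near-identical to each other, differed by -2.40 ± 0.06 and -2.11 ± 0.05. Il1r1, the receptor of IL-1, differed by 2.60 ± 0.11 (adjusted p = 1.44e-07), and Itih4 had 3681 ± 2175 CPM in Pico and 2668 ± 1423 in V4 (log2 difference 0.45 ± 0.07 (SE), adjusted p = 1), a difference that turned to -0.10 with TMM factors. Of 59 genes of the cytochrome P450 families that metabolise drugs and lipids, 5 were called higher in Pico and 8 in V4 (1 and 20 with TMM factors), where 25.6% and 8.12% of all genes were, and their median difference was -0.38. Their correlation with length was 0.24. Cyp2d10 had 276 ± 51.0 CPM in Pico and 1808 ± 376 in V4 (log2 difference -2.71 ± 0.06 (SE), called higher in V4), and Cyp2j9 11 ± 4.47 CPM in Pico and 2.26 ± 1.46 in V4 (log2 difference 2.29 ± 0.33 (SE), called higher in Pico with library totals and not with TMM factors). Cyp3a11, Cyp2e1 and Cyp2c29 differed by -0.69 ± 0.08, -1.02 ± 0.04 and -0.98 ± 0.06. In limma-voom they were called higher in V4 with TMM factors and not with library totals. DESeq2 called 3 of the 59 genes higher in Pico and 16 in V4.

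**Figure D5:**
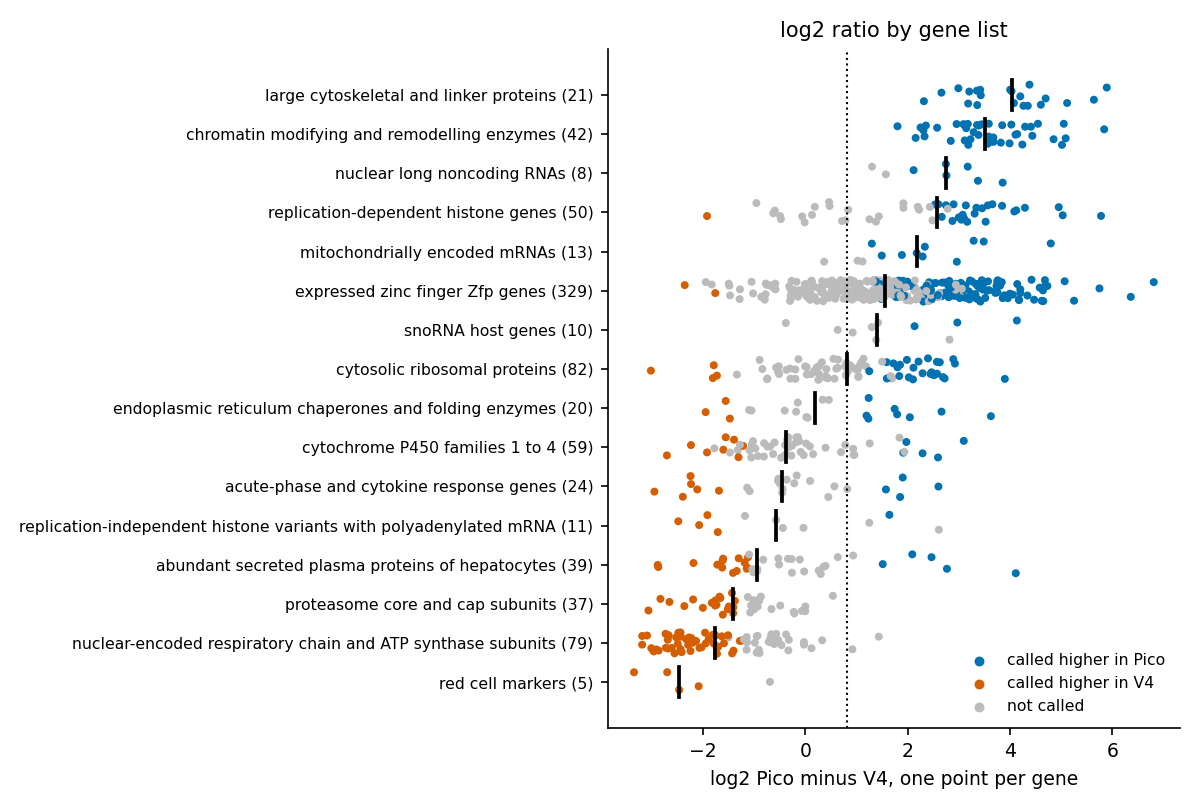
Each point is the log2 difference of Pico and V4 for 1 gene, by list (number of genes in brackets), coloured by its call, with a bar at the median of the list and a dotted line at the median of all 16395 genes (0.81). Large cytoskeletal and chromatin genes lie to the right with every gene called higher in Pico, and respiratory chain, proteasome and red cell genes lie to the left.

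Markers of cell types other than hepatocytes were compared between kits given aliquots of RNA from the same livers. Of 5 red cell genes, 4 were called higher in V4 with either scaling, with a median difference of -2.47, and the 5 summed to 350.0 to 986 CPM in V4 and 127 to 191 in Pico. Hba-a1, a short globin gene with a near-identical copy, had 15.4 ± 5.95 CPM in Pico and 159 ± 76.8 in V4 (SD, n = 6, log2 difference -3.35 ± 0.21 (SE), adjusted p = 1.32e-06). Its V4 values were 281 CPM in saline mouse 3, 221 in IL-1β mouse 1 and 75.6 to 132 in the other 4, and it was called higher in V4 without either mouse. Alas2, the longer gene of the heme pathway, had 89.4 ± 12.3 CPM in Pico and 145 ± 30.1 in V4 (log2 difference -0.69 ± 0.10 (SE), adjusted p = 1). Of 8 endothelial markers, 5 were called higher in Pico with either scaling, with a median difference of 2.57 and sums of 248 to 419 CPM in Pico and 59.7 to 139.5 in V4. Among them, the scavenger receptor gene Stab2, with 8757 exonic bases, had 90.7 ± 23.1 CPM in Pico and 10.2 ± 4.64 in V4 (log2 difference 3.17 ± 0.19 (SE), adjusted p = 1.17e-06), and Clec4g, with 2462, 29.8 ± 16.3 CPM in Pico and 36.0 ± 23.4 in V4 (log2 difference -0.25 ± 0.15 (SE), adjusted p = 1). Of 9 Kupffer cell markers 1 was called and of 7 stellate cell markers 2, all higher in Pico, of 5 cholangiocyte markers 1 in each direction and of 8 hepatocyte markers 2 in each direction. With TMM factors the calls higher in Pico and in V4 were 0 and 1 for Kupffer cell, 2 and 1 for stellate cell, 0 and 2 for cholangiocyte and 2 and 4 for hepatocyte markers. None of 4 neutrophil and 6 lymphocyte markers was called with library totals, 1 neutrophil marker was called higher in V4 with TMM factors, and the lymphocyte markers summed to at most 4.99 CPM in any library of either kit. Kupffer cell markers summed to 127 to 299 CPM in Pico and 109 to 327 in V4, and stellate cell markers to 309 to 555 and 274 to 485.

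Gene structure was compared next. Genes of a single exon had a median difference of 1.17 (1871 genes) and genes of several exons 0.77 (14524 genes), and among protein-coding genes the medians were 0.98 and 0.74. Pseudogenes inside an intron of a gene on their strand were called higher in Pico in 62 of 210 cases (29.5%) and higher in V4 in 4, and other pseudogenes in 232 of 1221 (19.0%) and 67. The 3418 genes whose exons overlap a gene on the other strand had a median difference of 0.76, against 0.82 in the other genes. In the 278 of them whose partner had at least 100 times their CPM in TruSeq, a strand-keeping kit, the median was 1.02. They summed to 304 CPM in Pico and 317 in V4, and 16 were called higher in Pico and 10 in V4. The medians by gene structure carry no count floor, like those of all genes and of the lists. With 0.5 counts added, a gene without counts in both libraries of a mouse takes a positive difference, since the Pico totals were smaller. How much of these medians comes from such genes was not tested.

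Genes detected differed with depth. Of the 16395 genes, 10973 had at least 1 count in all 12 libraries, 1290 in all 6 Pico libraries but not in all of V4, and 855 in all 6 V4 libraries but not in all of Pico. With every library thinned to 4024632 counts, the smallest total, these were 10449, 1803 and 514 genes. The spread between mice of the same treatment was larger in V4. In 6456 genes whose mean in the lower kit was 10 to 100 counts at equal depth, the median SD of log2 CPM was 0.314 in Pico and 0.431 in V4. In 2565 genes with 100 to 1000 counts it was 0.181 and 0.237, and in 280 genes with more it was 0.127 and 0.196. The SD was the larger in V4 in 65.7%, 65.7% and 74.6% of these genes.

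TruSeq values of the same mice placed the calls on either side. Of 3746 protein-coding genes called higher in Pico and listed for TruSeq, the TruSeq mean was nearer to that of Pico in 80.8%, on the scale log2(CPM + 1). Of 1238 called higher in V4 it was nearer to that of Pico in 72.1%. For all 11 misc_RNA, 8 snRNA and 13 snoRNA genes called higher in Pico and listed for TruSeq it was nearer to V4. TruSeq was run on far more RNA and in another sequencing run, so these values describe the libraries.

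Whether the response to IL-1β differed between the low-input kits was addressed with an interaction term. No gene passed an adjusted p of 0.05 (0% of 16395, limma-voom), 1022 genes had an unadjusted p under 0.05 (6.23%), and the smallest adjusted p was 0.596. edgeR's quasi-likelihood test called 89 genes and DESeq2 13. Without saline mouse 3, whose V4 library stood apart as given above, limma-voom called 20. The genes with the smallest p were Nlrp12, a gene of the NOD-like receptor family, Ankrd11, a chromatin regulator, and Med12l, a Mediator subunit. The log2 difference between IL-1β and saline in Nlrp12 was 1.55 in Pico but 0.34 in V4, an interaction of 1.20 ± 0.21 (SE). Its saline values were 34.1, 31.1 and 38.5 CPM in Pico and 88.9, 90.0 and 77.0 in V4. In Ankrd11 the same differences were 0.26 and -1.14, and Med12l, which had no count in the V4 libraries of the 3 IL-1β mice, had an interaction of 4.71 ± 0.87. The adjusted p of each of the 3 was 0.596.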

How the data were processed

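Total RNA of 6 mouse livers was sequenced with each of 3 kits. The labels name snap-freezing of the liver and the study's methods name another preservative. The authors aligned reads with GSNAP to mm9 and, with their pipeline PORT, removed ribosomal reads, resampled the samples of a kit to equal depth and deposited gene counts, which count sense reads for Pico and reads of both strands for V4. The labels say that the Pico preparation was repeated, and which preparation the deposited counts come from is not given in the sources used here.

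Counts of the 16395 genes listed for both kits were analysed with limma-voom (limma 3.58.1, R 4.3.3), with library totals as the scaling and mouse as a block, and tested with limma's treat against 2-fold with Benjamini-Hochberg adjustment. The interaction of kit and treatment was tested against 0. Alternatives were TMM factors, edgeR 4.0.16, DESeq2 1.42.0, a mean of at least 10 counts, no block, thinning to 4024632 counts, a test against 0 and leaving out each mouse. Shares of classes were compared by exact sign-flip tests over mice. Scripts were tested on simulated data. The same numbers mark the same mice, and deviations from the group means correlated within mice at 0.0285 to 0.160 over 10556 genes whose mean was at least 20 counts, each Pico library best with its own mouse. Each mouse gave 1 library per kit, so preparation and mouse cannot be told apart in the spread of a kit.

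Gene classes, lengths and coordinates are those of GENCODE M1 on NCBIM37. Intervals cover counting error only, since reads carry no molecular identifiers. The genes and lists were chosen with earlier results of these data known, and subgroups of lists (subunit types, complexes, histone types) were chosen after values were seen. Genes named are the 8 with the largest and the 8 with the smallest ratio among called genes of the same sign in 6 of 6 mice and a mean of at least 20 CPM, the 5 largest rises and falls in CPM, in each list the 3 highest and those at either end with a mean of at least 5 CPM, and the 3 smallest p of the interaction. The U2 copy was chosen after its values were seen. Some genes this rule names are not reported here.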

Additional observations from a re-analysis of the deposited data

Results flagged for a closer look

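The comparison left out genes listed for 1 of the low-input kits only. The 1713 genes listed for Pico and not for V4 summed to 1192 ± 69.2 CPM (SD, n = 6 libraries) in Pico, between 1096 and 1270.2, and 66 of them had a mean of at least 10 counts. Of that sum, 146 snoRNA genes held 593 CPM, 839 protein-coding genes 205 CPM, 360 pseudogenes 132 CPM, 61 snRNA genes 123 CPM and 43 misc_RNA genes 62.4 CPM. The highest levels were those of snoU6-77 (105 CPM), Snord17 (92.6 CPM) and Snord15a (35.5 CPM). The 1656 genes listed for V4 and not for Pico summed to 139 ± 28.6 CPM in V4, between 108 and 190.1, and 16 of them had a mean of at least 10 counts. Protein-coding genes held 72.8 CPM of that sum in 797 genes. A gene not listed for a kit has no value for it here, so no fold was computed.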

How the results depend on the processing

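Calls between the kits depended on scaling and test. A test against 0 in place of 2-fold gave 7702 genes higher in Pico and 3547 higher in V4. Genes higher in V4 numbered 2359 with TMM factors and 2061 with DESeq2, against 1332. The fit without the mouse block called 4203 and 1254 genes, and 3842 to 4007 and 1198 to 1254 were called when 1 mouse was left out. Among genes with no exon overlap on the other strand, a choice made after seeing the data, 3366 and 1097 were called. The interaction of kit and treatment gave 89 genes with edgeR, 13 with DESeq2, 1 among genes whose mean was at least 10 counts and 0 to 20 when 1 mouse was left out. The cause of these changes was not tested.

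List medians minus the median of all genes kept their sign under every alternative run, except that of ribosomal protein genes, which lay near 0 (-0.15 to 0.09 when 1 mouse was left out). With edgeR, a mean of at least 10 counts and equal depth, in that order, they were 1.58, 1.76 and 1.75 for mitochondrial mRNAs, 2.49, 2.95 and 1.31 for nuclear long noncoding RNAs, -2.02, -1.83 and -1.84 for proteasome genes, -1.54, -1.36 and -1.38 for plasma proteins, -0.98, -0.87 and -0.85 for acute-phase genes, -1.01, -0.87 and -0.85 for cytochrome P450 genes, -0.39, -0.23 and -0.25 for chaperones, 2.95, 3.06 and 3.06 for chromatin enzymes and 0.96, 0.97 and 0.96 for zinc finger genes. With the latter 2 settings they were 0.94 and 1.01 for snoRNA host genes, -2.20 and -2.19 for nuclear respiratory genes and 3.61 and 3.61 for large cytoskeletal genes. For hepatocyte markers the 3 settings gave -0.95, -0.76 and -0.78, and for Kupffer cell markers the latter 2 gave -0.27 and -0.32, and for endothelial markers 2.15 and 2.04. DESeq2 gave 2.63 for nuclear long noncoding RNAs and 2.23 for replication-dependent histones. Leaving out 1 mouse gave 1.24 (without saline mouse 3) to 1.42 for mitochondrial mRNAs, 1.63 to 2.15 for nuclear long noncoding RNAs and 0.48 to 0.95 for snoRNA host genes, lowest for the long noncoding RNAs and highest for the host genes without saline mouse 3.

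With every gene of each table, the log2 difference in share was -1.12 for IG_V_gene and 8.95 for snoRNA. The protein-coding share, mitochondrial messengers included, differed by -0.00235 with mitochondrial counts left out of the totals only. The correlation with length was 0.61 with a mean of at least 10 counts and 0.56 in protein-coding genes, and that with GC content -0.25 with the former. With TMM factors the sign turned for mt-Nd6 (-0.16), Rps3 (-0.13), Ndufb4 (-0.19), Itih4 (-0.10), P4hb (-0.51), Clec4f (-0.37) and Cd79b (-0.46, and -0.37 at equal depth), none of them called. Psmd2 gave 0.00366 without the block. Leaving out 1 mouse gave -0.0506 to 0.0361 for Psmd2, -0.0995 to 0.0491 for Sdha and -0.59 to 0.48 for Cd79b. Depth limits the small RNAs, of which 29 had at most 3 counts in V4.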
